A study of Drosophila melanogaster and Drosophila persimilis and Drosophila pseudoobscura with 5 samples.

Results

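The Tsp42E genes are a run of tetraspanin genes on chromosome arm 2R of D. melanogaster. They were taken as every row of the authors' cross-species table whose symbol starts with Tsp42E, which gave 15 genes of the 8180 in the table. The data are RNA sequencing of Johnston's organ, a sense organ in the antenna with which flies hear, from adults of 5 species raised at 25 degrees Celsius on standard food. The melanogaster species group is represented by D. melanogaster, D. simulans and D. yakuba, and the obscura group by D. pseudoobscura and D. persimilis. There is 1 library per species, so no difference below has a replicate check, no test was run, and "higher" and "lower" describe the libraries at hand. The labels give no strain, sex, age in days or number of flies. The column names of the cross-species table carry suffixes after the species that the labels do not explain.

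Tetraspanins are small proteins that cross the membrane several times and carry a large extracellular loop held by disulphide bridges. They gather other membrane proteins, among them integrins, adhesion molecules and proteases, into patches and take part in their trafficking. In the fly, many tetraspanin genes lie side by side in the Tsp42E cluster. Tsp42Ej, also called sunglasses, encodes a lysosomal tetraspanin that acts in the turnover of rhodopsin in photoreceptors, and late bloomer (lbm), which carries no Tsp42E symbol, acts on motor axons as they form synapses. For most other members a role is not stated here.

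The level of a gene is given as the authors' signal, which is scaled so that every library has the same upper quartile. In D. melanogaster the values show it to be reads divided by gene length, which was not checked in the other species. All values were multiplied by 1 common factor, so that a library's signals sum on average to 1000000. Signals are compared between genes within a library, which outside D. melanogaster takes the same division by length as given. The total reads counted on genes ranged from 7580214 in D. simulans to 22391819 in D. melanogaster. The labels do not say how genes of one species were paired with those of another, so pairing with a different copy of the family and a true difference in level cannot be told apart, which bears on every comparison between species below. Outside D. melanogaster a value of 0 can also be a missing match. Less RNA per cell and fewer cells of a type cannot be told apart in such libraries. The Tsp42E genes were selected on their signals in these libraries, since Tsp42Ed and Tsp42Er differed between the species groups, so their differences are given as a description.

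In the later BDGP6 annotation the members span 73438 bases, from 6992676 to 7066113 on arm 2R, with 18 tetraspanin genes when lbm, Tsp42Eb and Tsp42En are counted. Of these, 15 lie on the plus strand and 3, Tsp42Ed, Tsp42Ep and Tsp42Eq, on the minus strand. Tsp42Ed (2R:7009498-7011739) and Tsp42Ee (2R:7012254-7018362) are neighbours arranged head to head, with 514 bases between them. Tsp42Eq (2R:7062108-7063569) and Tsp42Er (2R:7064399-7066113) are also head to head, 829 bases apart, at the far end of the cluster. The span also holds 9 other annotated genes, pseudogenes included, some of which overlap a tetraspanin gene. Tsp42Ej shares 9.59% of its exon bases with Tsp42Ek, and Tsp42Ei 13.96% with CG33914 on the opposite strand, which had 1 read in D. melanogaster. The members' exons cover 848 to 2892 bases, against a median of 1830 over the genes compared.

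Tsp42Ed was the most abundant member on average, with a mean signal of 1786 over the 5 libraries. Its signal was 165 in D. melanogaster, 540 in D. simulans and 373 in D. yakuba, and 3863 in D. pseudoobscura and 3988 in D. persimilis. The obscura group libraries lay close together, at a ratio of 1.03, and far above the other 3. The lower obscura group value exceeded the highest melanogaster group value 7.15-fold, and the mean log2 difference, with a pseudocount of 1, was 3.60. Among all genes of the table Tsp42Ed stood at percentile 92.4 in D. melanogaster and at percentiles 99.5 and 99.1 in D. pseudoobscura and D. persimilis. These ranks do not depend on the scaling between libraries. In D. melanogaster the gene had 2522 reads (95% exact Poisson interval 2425 to 2622, which covers counting error only). Intervals below are of the same kind.

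Its head-to-head neighbour Tsp42Ee did not share this pattern. Tsp42Ee had signals of 1065 in D. melanogaster, 1289 in D. simulans and 567 in D. yakuba, and 719 in D. pseudoobscura and 293 in D. persimilis. The species groups overlapped, with D. pseudoobscura above D. yakuba. Tsp42Ee was the most abundant member in each melanogaster group library, at rank 2 of the 15 in D. pseudoobscura and at rank 5 in D. persimilis. The ratio of Tsp42Ee to Tsp42Ed within a library, which no scaling between libraries can move, was 6.46 in D. melanogaster, 2.39 in D. simulans and 1.52 in D. yakuba, and 0.186 in D. pseudoobscura and 0.0734 in D. persimilis. The order of the pair thus turned between the species groups.

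**Figure D1:**
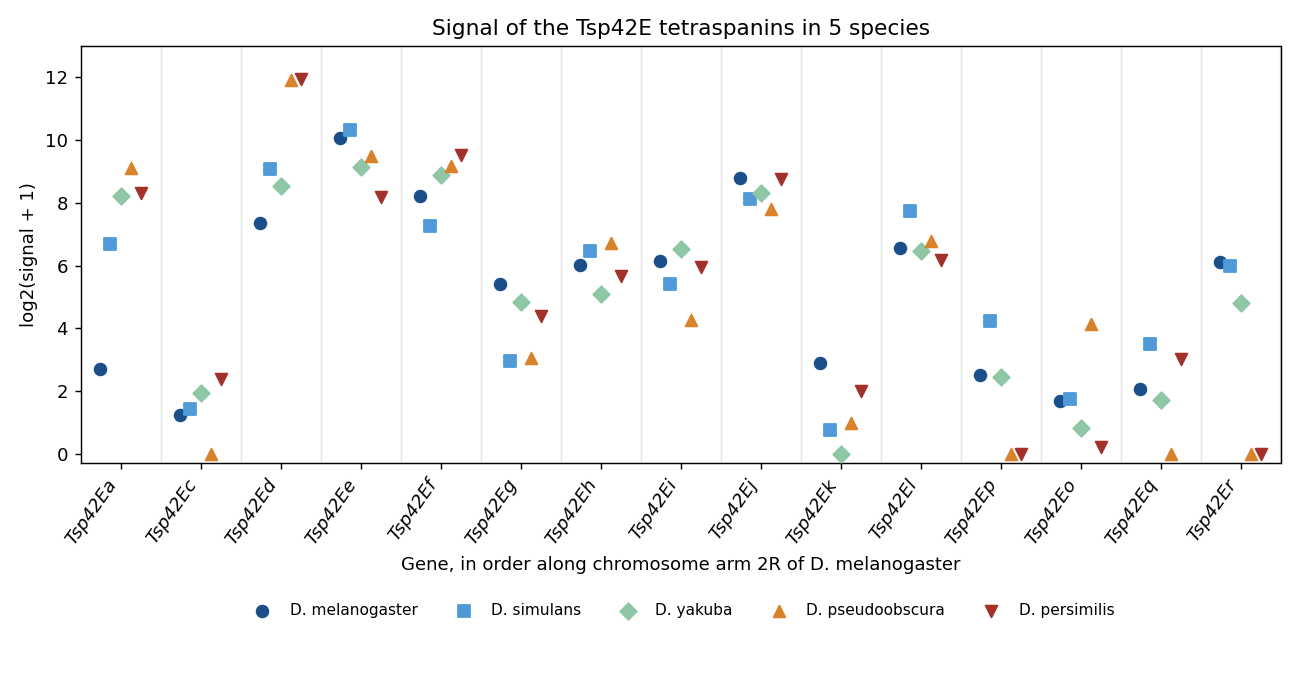
Signal of the 15 Tsp42E genes in the 5 libraries, as log2(signal + 1) on the vertical axis, with genes in their order along the chromosome arm and 1 point per library. Tsp42Ed is at 3863 and 3988 in the obscura group libraries against at most 540 elsewhere, Tsp42Er is at 0 in both of them, and Tsp42Ej keeps within 2.004-fold.

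Tsp42Er had the opposite pattern. Its signal was 68.7 in D. melanogaster, 62.3 in D. simulans and 27.0 in D. yakuba, and it was listed at 0 in both D. pseudoobscura and D. persimilis. No fold is given against libraries listed at 0. In D. melanogaster 872 reads were counted on it (815 to 932), and none of its exon bases is shared with another annotated gene. Of 2051 genes with a signal of at least 20 in each melanogaster group library, 2 were listed at 0 in both obscura group libraries (0.0975%), Tsp42Er and the odorant-binding protein gene Obp56e. A further 17 of them (0.829%) were at 0 in exactly 1 obscura group library. The level of 20 was chosen after the values were seen, and the count was 5 of 2890 genes with a level of 10 and 19 of 3695 with a level of 5. Since Tsp42Er was chosen on this contrast, nothing is read from these counts.

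Tsp42Ep (2R:7054405-7057548) was the other member at 0 in both D. pseudoobscura and D. persimilis, and its level elsewhere was low. Its signal was 4.79 in D. melanogaster, 17.7 in D. simulans and 4.53 in D. yakuba. Its 73 reads in D. melanogaster (57.2 to 91.8) were counted on the authors' earlier gene model. In BDGP6 the exons cover 2892 bases, of which 30.7% are shared with Tsp42Eo (2R:7054717-7056576) on the opposite strand, and hold all exon bases of Tsp42Eo. The ratio of reads to signal implies a length of 997 bases in the authors' model, so the overlap need not apply to these reads. The labels do not say whether the counting used strand, and where the models overlap the reads of the pair cannot be told apart.

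The filter for comparisons, a mean signal of at least 5 over the 5 libraries, was passed by 11 of the 15 members and by 5089 genes of the table. The call of higher required both obscura group signals, with the pseudocount added, to be at least 2-fold above all 3 melanogaster group signals, and the call of lower the reverse. By this rule 1 member was higher, Tsp42Ed, against 4.68% of all genes compared, and 2 were lower, Tsp42Ep and Tsp42Er, against 5.86%. Without the D. yakuba library Tsp42Ea was also higher, and without D. persimilis, which leaves 1 obscura group library, Tsp42Eo was also higher and Tsp42Ei lower. Of all genes compared, 7.19% were called higher without D. yakuba, and 8.36% higher and 12.6% lower without D. persimilis. Tsp42Ep and Tsp42Er passed the filter only through their melanogaster group signals, since both were at 0 in the obscura group. For Tsp42Ep these were 4.79, 17.7 and 4.53, above 5 only in D. simulans. Without that library Tsp42Ep fell under the filter. Since the contrast was used to choose the genes, nothing is read from these shares. The median log2 difference was -0.44 over the 11 members and -0.06 over all genes compared, with 4 members positive and 7 negative.

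In all, 3 members lay higher in the obscura group without overlap, against 16.7% of all genes compared, and 2 lower, against 19.9%. Tsp42Ef and Tsp42Ea were above by less than 2-fold. Tsp42Ef (2R:7025010-7028082) had signals of 299, 153 and 476 in D. melanogaster, D. simulans and D. yakuba, against 574 in D. pseudoobscura and 733 in D. persimilis, a gap of 1.20-fold. Tsp42Ea (2R:6992676-7004259) had signals of 5.55 in D. melanogaster, 102 in D. simulans and 299 in D. yakuba, and 552 in D. pseudoobscura and 321 in D. persimilis, a gap of 1.07-fold. The Tsp42Ea values of D. yakuba and D. persimilis lay next to each other, and the group difference of 2.84 on the log2 scale was 1.26 without D. melanogaster.

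Among the 9 compared members above 0 in all 5 libraries, Tsp42Ea had the widest range over the species. Its highest signal was 99.4 times its lowest, and 96.8% of all genes compared had a smaller range on the log2(signal + 1) scale. The low value was in D. melanogaster, where 172 reads were counted (147 to 200). There, 4.80% of its exon bases are shared with CG30159, a gene on the same strand at 2R:6992681-6994306, and Tsp42Eb lies within its span. CG30159 itself had signals of 45.0, 47.6, 31.2, 87.6 and 140 in D. melanogaster, D. simulans and then D. yakuba, followed by D. pseudoobscura and D. persimilis. The part of the overlapping annotation in the low D. melanogaster value of Tsp42Ea was not tested.

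Tsp42Ej, the lysosomal member, varied little in the deposited scaling. Its signal was 447 in D. melanogaster, 279 in D. simulans and 317 in D. yakuba, and 223 in D. pseudoobscura and 435 in D. persimilis. The highest and lowest were 2.004-fold apart, and 7.72% of all genes compared had a range as small or smaller. With library totals made equal its range was 3.004-fold, beside 2.84-fold for Tsp42Eh and 2.95-fold for Tsp42El. Photoreceptor markers present in the table (4 of 7, ninaE, trp, Arr1 and Arr2) are given beside it. Their summed signal was 7333 in D. simulans, against 17.2 to 291 in the other libraries, while Tsp42Ej in D. simulans was the second lowest of the 5. Both the marker sum (17.2) and Tsp42Ej (223) were lowest in D. pseudoobscura. The part of photoreceptors in the signal of Tsp42Ej was not tested. lbm (2R:7049238-7051964), the neighbour that acts in synapse formation, had 183, 35.3 and 134 in the melanogaster group in the same order of species, and 47.3 and 54.2 in D. pseudoobscura and D. persimilis, so that the groups overlapped through D. simulans. Tsp42A, a tetraspanin gene elsewhere on the arm, was listed at 0 in all 5 libraries.

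The remaining compared members overlapped between the species groups. Tsp42El ranged from 70.9 in D. persimilis to 214 in D. simulans, with the other 3 libraries between 86.9 and 110. Tsp42Eh lay between 33.5 in D. yakuba and 105 in D. pseudoobscura. Both kept within 4-fold, as did Tsp42Ej. Tsp42Ei was lowest in D. pseudoobscura at 18.1 and between 41.5 and 92.0 in the others. Tsp42Eg was low in D. simulans (6.78) and D. pseudoobscura (7.38) and at 20.2 to 41.6 in the others. At least 4-fold between the highest and the lowest library was reached by 8 of the 11 members, against 61.7% of all genes compared, and the median range was 2.28 on the log2 scale for members and 2.39 for all genes.

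The 4 members under the filter were Tsp42Ec, Tsp42Ek, Tsp42Eo and Tsp42Eq. Tsp42Ec had at most 4.29, in D. persimilis, and was listed at 0 in D. pseudoobscura. Tsp42Ek had at most 6.42, in D. melanogaster, and was listed at 0 in D. yakuba. Tsp42Eq had at most 10.3, in D. simulans, and was listed at 0 in D. pseudoobscura. Tsp42Eo had 16.7 in D. pseudoobscura and 0.166 to 2.39 in the other libraries, so its level in D. pseudoobscura stood apart from that in D. persimilis. With a mean of 4.45, Tsp42Eo lay just under the filter, as did Tsp42Eq at 4.59, while Tsp42Ep lay just above it at 5.41.

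Most of the signal of the cluster came from few genes. Tsp42Ed, Tsp42Ee, Tsp42Ef and Tsp42Ej together held 84.6% of the members' summed signal in D. melanogaster, 80.5% in D. simulans and 75.05% in D. yakuba, and 86.9% in D. pseudoobscura and 91.0% in D. persimilis. The share of Tsp42Ed alone was 7.06%, 19.2%, 16.2%, 62.4% and 66.6% in that order. The share of Tsp42Ee was 45.6%, 45.9%, 24.5%, 11.6% and 4.89%. Such shares compare genes within a library and do not depend on the scaling between libraries.

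**Figure D2:**
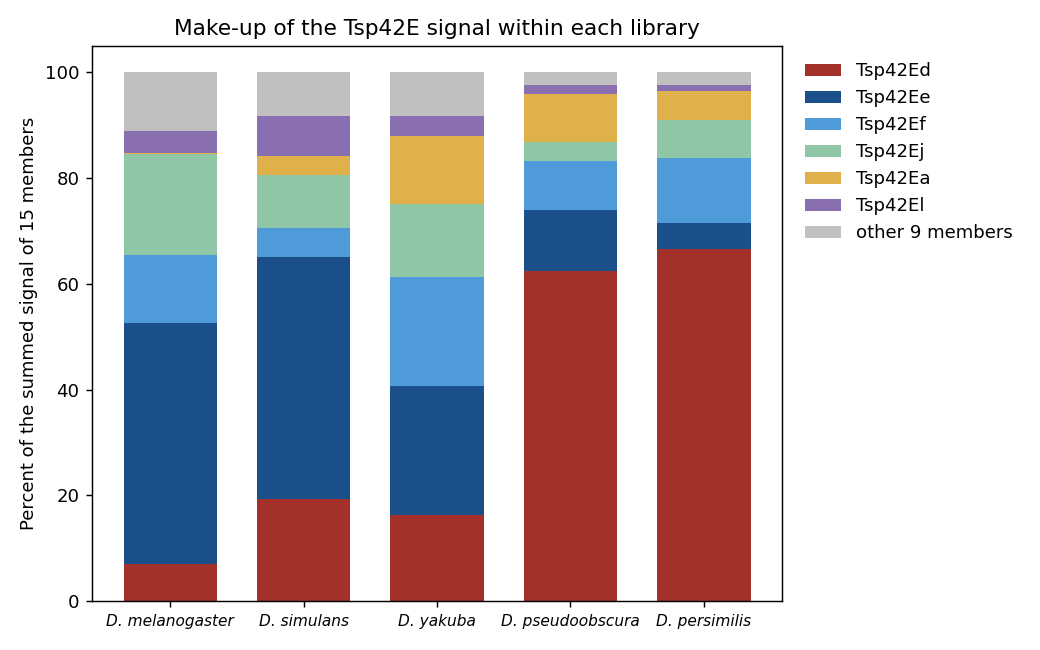
Percent of the summed signal of the 15 members held by Tsp42Ed, Tsp42Ee, Tsp42Ef, Tsp42Ej, Tsp42Ea, Tsp42El and the other 9 members together, with 1 bar per library. Tsp42Ed holds 7.06% to 19.2% in the melanogaster group libraries and 62.4% and 66.6% in the obscura group libraries.

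Summed over the 15 members, the signal was 2336, 2808 and 2309 in D. melanogaster, D. simulans and D. yakuba, and 6189 and 5986 in D. pseudoobscura and D. persimilis. The lower obscura group sum was 2.13 times the highest melanogaster group sum, and 1.40 times when library totals were made equal. Without Tsp42Ed it was 2171, 2268, 1936, 2326 and 1998 in that order, with 1.20-fold between the highest and the lowest library. This evenness depended on the scaling. When library totals were made equal the ratio was 1.99, highest in D. melanogaster and lowest in D. persimilis. The sum was formed after the values were seen.

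Of the 11 compared members 4 were at least 2-fold apart between D. pseudoobscura and D. persimilis, against 39.7% of all genes compared, and none was 4-fold apart. They were Tsp42Ee and Tsp42Eh, higher in D. pseudoobscura by 2.46-fold and 2.11-fold, and Tsp42Eg and Tsp42Ei, higher in D. persimilis by 2.73-fold and 3.35-fold. Between D. melanogaster and D. simulans 5 of the 11 were at least 2-fold apart, against 50.0% of all genes. Between D. melanogaster and D. yakuba the count was 3, against 34.5%. Between D. simulans and D. yakuba it was 9, against 48.0%. These counts were made with the pseudocount of 1 added.

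**Figure D3:**
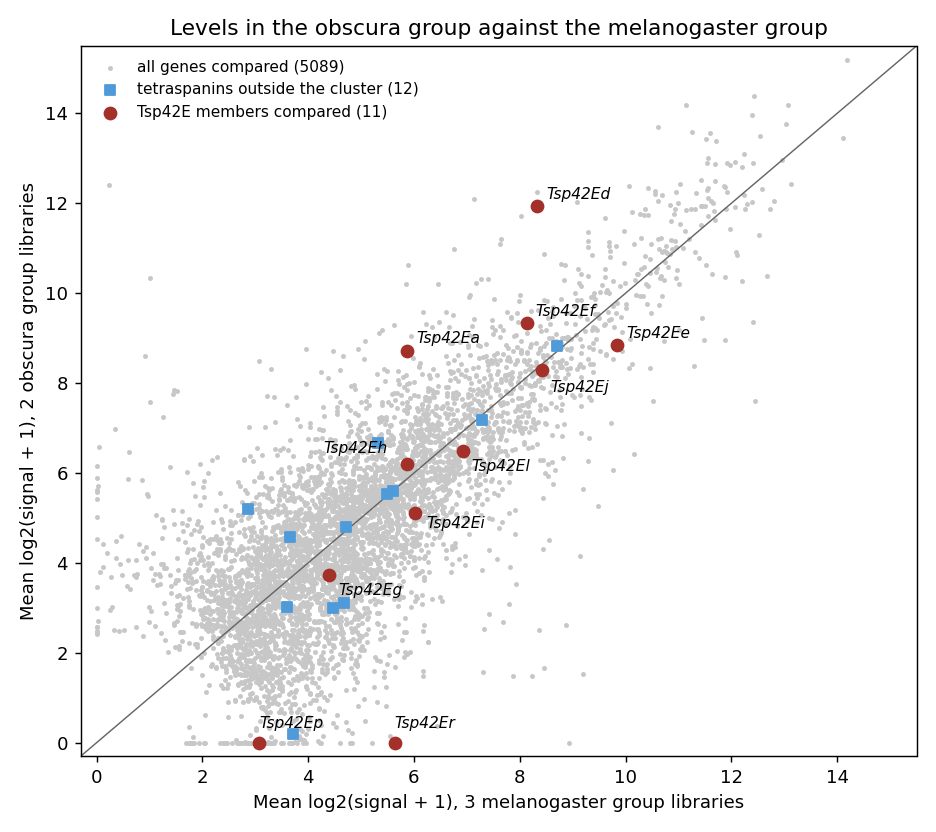
Mean log2(signal + 1) in the 2 obscura group libraries against the mean in the 3 melanogaster group libraries for all 5089 genes compared, with the 11 Tsp42E members and 12 tetraspanins outside the cluster marked and equality drawn as a line. Tsp42Ed lies above the line by 3.60, and Tsp42Er and Tsp42Ep lie at 0 on the vertical axis.

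Tetraspanins outside the cluster gave a comparison within the family. Of 16 genes listed, 14 were in the table and 12 passed the filter. None was called higher by the 2-fold rule, against 4.68% of all genes compared, and 1 was called lower, against 5.86%. This was Tsp2A, which builds the septate junctions of the gut. Tsp2A had signals of 4.42, 24.2 and 15.3 in D. melanogaster, D. simulans and D. yakuba against 0 and 0.298 in D. pseudoobscura and D. persimilis. The median log2 difference over the 12 was 0.02. Tsp29Fb was the most abundant of them, with 525, 267, 509, 511 and 396 in the order of species used above. Tsp3A, Tsp26A and Tsp86D, tetraspanins of the kind that controls the protease Kuzbanian, had signals of 0 to 56.5, 6.63 to 16.3 and 7.69 to 29.8. The summed signal of the 14 lay between 535 in D. simulans and 1149 in D. yakuba, below that of the Tsp42E members in every library.

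Genes of proteins that tetraspanins associate with were partly in the table. Of 11 listed genes of the Kuzbanian, Notch and septate junction group 5 were present and 3 were compared, and none was called, against the same shares. Nrx-IV and sinu lay lower in the obscura group without overlap, by less than 2-fold, and cora overlapped. Summed over the 5 present, the signal was 80.9 to 215 in the melanogaster group and 73.9 and 26.4 in the obscura group. Of 8 genes of integrins and their linker talin 3 were present and compared, and none was called. mys, the common integrin beta subunit, had 71.2, 38.0 and 8.73 in the melanogaster group and 15.3 and 4.49 in the obscura group. It overlapped through D. yakuba, and mew overlapped too. The gene if lay lower in the obscura group without overlap (31.8, 17.4 and 29.6 against 1.29 and 8.76), by less than 2-fold. Of all genes compared 19.9% were lower without overlap. Summed, the 3 integrin genes had 52.3 to 112 in the melanogaster group and 22.1 and 14.7 in the obscura group. Of 10 lysosomal genes 8 were compared and 1 was called lower in the obscura group, against 5.86% of all genes compared, the protease gene cathD (1204, 1410 and 724 against 352 and 297). Lamp1, a lysosomal membrane protein, was at 355 to 687 in all 5 libraries.

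Of the other genes in or beside the cluster 4 that are no tetraspanins were in the table. CG30159, CG12836 and Pgant3 lay higher in the obscura group without overlap, against 16.7% of all genes compared. Of these CG12836 was past 2-fold, against 4.68%, while Pgant3 had a gap of only 0.153 on the log2 scale. CG12836 (2R:7068572-7069896), the next gene beyond Tsp42Er, had signals of 49.9, 18.1 and 22.0 in D. melanogaster, D. simulans and D. yakuba and 245 and 243 in D. pseudoobscura and D. persimilis. It had the opposite direction to Tsp42Er beside it. CG17002 (2R:6986043-6988922), at the other end, had 3.42 to 15.6 with overlapping groups. Pgant3 (2R:7057654-7061732), an enzyme that starts sugar chains on proteins and lies between Tsp42Ep and Tsp42Eq, had 14.7, 0.0741 and 6.74 in the melanogaster group and 16.5 and 21.7 in the obscura group.

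The genes whose pattern over the 5 libraries was most like that of Tsp42Ed were found by the root mean square difference of log2 profiles, each centred on its own mean. They were CG17343 (0.249), CG12659 (0.314), CG13949 (0.332), CG32104 (0.384) and OS9 (0.447). CG17343 had signals of 6.76, 18.6, 10.5, 183 and 182 in the order of species used above. None of them is a tetraspanin by symbol, and all lie on other chromosome arms. The nearest member was Tsp42Ea, at a difference of 1.45 and rank 647. For Tsp42Er the nearest genes were Pmp70, now Abcd3, a peroxisomal transporter (0.520), CG3781, now Josd (0.624), CG10911 (0.685), MFS10 (0.691) and CG9135 (0.742). Tsp42Er and Tsp42Ed differed by 4.60 on this measure, and the closest members to each other were Tsp42Ee and Tsp42El, at 0.469.

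In the D. melanogaster counts the 15 members held 44933 reads, or 0.201% of the library. Per kilobase of exon in BDGP6 the order began with Tsp42Ee (15510 reads per kilobase), Tsp42Ej (6820), Tsp42Ef (4558), Tsp42Ed (2021) and Tsp42El (1429), whose intervals did not overlap. Tsp42Ei (1058), Tsp42Er (1028) and Tsp42Eh (971) followed, and the intervals of neighbours in this order overlapped. Tsp42Eg was next at 635. Tsp42Ek (98.1) and Tsp42Ea (85.1) overlapped in turn. Tsp42Eq (48.3), Tsp42Eo (33.7), Tsp42Ep (25.2) and Tsp42Ec (20.5) came last, each overlapping with the next. The 25.2 of Tsp42Ep rests on 2892 bases in BDGP6. With the 997 bases implied by its signal it was 73.2, and its rank by signal was 12. For Tsp42Ed the signal implies 1001 bases, against 1248 in BDGP6. With that length Tsp42Ed was at 2519 reads per kilobase, and its rank was 4 both by signal and by BDGP6 length.

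**Figure D4:**
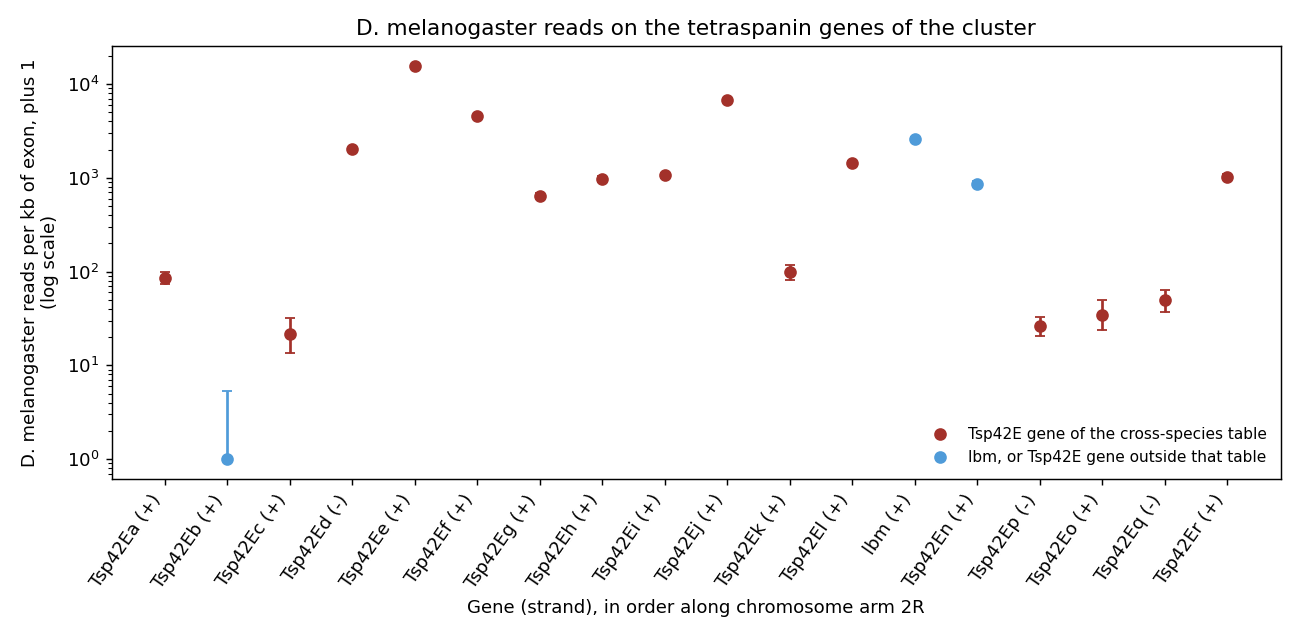
D. melanogaster reads per kilobase of exon, plus 1, on a log scale for the 18 tetraspanin genes of the cluster in their order along the arm, with 95% exact Poisson intervals that cover counting error only. The members range from 20.5 reads per kilobase for Tsp42Ec to 15510 for Tsp42Ee.

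The markers of Johnston's organ were thinly covered. Of 6 neuronal markers 2 were in the table, nompC and nan. Their summed signal was 16.2 in D. melanogaster, 1.02 in D. simulans and 14.8 in D. yakuba, and 10.7 in D. pseudoobscura and 8.74 in D. persimilis. The D. simulans library thus stood apart from the rest. Summed markers of fat body and of the olfactory segment did not overlap between the species groups. Fat body markers (3 of 5 present) summed to 6471 to 21547 in the melanogaster group and to 1119 and 2249 in the obscura group, in the direction of Tsp42Er. This sum rests on the yolk protein genes Yp1 and Yp2, both called lower in the obscura group, against 5.86% of all genes compared. Lsp2, the larval serum protein gene in the list, overlapped between the groups (494, 11.1 and 0.0888 against 35.0 and 24.6). Olfactory segment markers (4 of 5 present) summed to 7630 to 16554 in the melanogaster group and to 26640 and 50301 in the obscura group, in the direction of Tsp42Ed. In that list the co-receptor gene Orco and the odorant-binding protein gene Os-F (Obp83a) overlapped between the groups. Os-E lay higher in the obscura group without overlap, by less than 2-fold. Obp28a was the 1 gene called higher (931, 2368 and 5172 against 25852.8 and 13510.5), against 4.68% of all genes compared. No defining marker of either list was at 0 in all libraries. The summed markers of glia, haemocytes, muscle and support cells overlapped between the groups. Those of photoreceptors (4 of 7 present) also overlapped, at 104 to 7333 in the melanogaster group and 17.2 and 117 in the obscura group. Called lower were 2 of them, ninaE and trp, against 5.86% of all genes compared, in the direction of Tsp42Er. Arr1 and Arr2 overlapped. ninaE had 56.3, 4604 and 159 against 13.5 and 26.5, and trp 2.62, 87.4 and 8.10 against 0 and 0.117. The part of other cell types in the differences of Tsp42Ed and Tsp42Er was not tested.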

How the data were processed

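The authors deposited counts, whole numbers of reads per gene of each species' own annotation (per the labels, release 5.46 for D. melanogaster, release 2.30 for D. pseudoobscura, release 1.4 for D. simulans and release 1.3 for both D. yakuba and D. persimilis), with no normalization. Per the submitters' processing notes, TopHat2 2.0.3 and HTSeq were used, in roles not described. The signal of the authors' cross-species table was read from its values. Its upper quartile was 34.3 in every library, and for 76.8% of 5842 D. melanogaster genes signal times exon length over count lay within 5% of its median.

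Signals were multiplied by 1.09093 and compared as log2(signal + 1), which understates differences of low genes. The gap rule was applied to the whole table. It was first run on simulated data whose libraries differed far less than these do, which does not show how the rule behaves here. All 15 members, the called genes of the lists, the 5 genes most like Tsp42Ed and Tsp42Er and the neighbouring genes are named. Members, lists and rules were chosen with earlier results of these data known. Symbols were matched to BDGP6 (Ensembl release 115) by current symbol or synonym, 8087 of 8180. The members' ranges and sums under other scalings and the lengths implied by the signal were added after the values were seen. No sequence is printed. Scaling alternatives used edgeR 4.0.16, and the rest Python 3.11.15 with scipy 1.17.1 and statsmodels 0.14.6. Depth outside D. melanogaster is unknown for single members.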

Additional observations from a re-analysis of the deposited data

Results flagged for a closer look

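Tsp42En (2R:7052747-7054399), a tetraspanin gene of the cluster between lbm and Tsp42Ep, had 1141 reads in D. melanogaster (95% exact Poisson interval 1076 to 1209), above the limit of 3 reads taken for a count of 0, but has no row in the cross-species table. Per kilobase of exon this is 860, between Tsp42Eh and Tsp42Eg. Its level in the other species was not analysed here. Tsp42Eb (2R:6998848-6999848), the other gene of the cluster outside that table, had no read, for which the same limit of 3 reads was taken.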

How the results depend on the processing

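Tsp42Ed was higher in the obscura group under every alternative run, and Tsp42Er was lower under all but 1, the restriction to genes above 0 in all 5 libraries, which removes it by construction. The members called lower, 2 as reported, were 1 with a pseudocount of 5, 1 when the mean signal had to reach 20 and 0 among genes above 0 in all libraries. Leaving out 1 library at a time gave 1 to 2 members called higher, 1 to 3 called lower and 5 to 9 with a range of at least 4-fold, while the shares of all genes compared were 7.19% to 9.44%, 7.83% to 14.7% and 48.6% to 54.7%. Of 165 recomputed group differences 152 moved by less than the spread within the species groups, 13 moved by more and none of a called member changed sign. The sign changed for 7 of the 15 members, none of them called, each time when 1 library was left out. The rank by D. melanogaster reads per kilobase equalled that by signal for 12 members. The median log2 difference of all genes moved from -0.06 to -0.33 under equal totals, where Tsp42Ed kept a gap of 7.03-fold. No paired analysis was possible because each species has 1 library. Depth limits the 4 members with at most 73 reads in D. melanogaster, Tsp42Ec, Tsp42Eo, Tsp42Ep and Tsp42Eq.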
